A study of Mus musculus with 6 samples.

Results

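The 9 genes described here are 7 members of the LDL receptor family, Vldlr, Lrp8, Lrp1, Lrp2, Lrp5, Lrp6 and Lrp10, and the sorting receptors Sort1 and Sorl1. They are found by their symbols, in a list drawn up with earlier results of these data known, and are 9 of the 15973 protein-coding genes that the study compared. The list does not hold the whole family. RNA-Seq was done on 4T1-T cells, which are a single clone from the murine mammary carcinoma line 4T1 that the study classes as able to form vessel-like channels (vasculogenic mimicry). All cells were starved of serum overnight, given acetylated low-density lipoprotein (acLDL) labelled with Alexa-488 at 10 ug/mL for 4 h and returned to complete medium for 1 h. They were then sorted into the 25% with the most fluorescence (acLDL-high) and the 25% with the least (acLDL-low), so neither population was left without the lipoprotein. The sort was done on 3 separate occasions, which gave 3 libraries of each population. Libraries with the same replicate number, 1 to 3, are taken here as a pair from 1 occasion, which the labels do not state outright.

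Receptors of the LDL receptor family span the membrane once, bind ligands at the surface and carry them into endosomes, where the acid pH releases the cargo and the receptor returns to the surface. Several also act as signalling receptors. Acetylation of LDL blocks its recognition by the LDL receptor and directs the particle to scavenger receptors, so these genes are relatives of the receptor for native LDL and not the textbook receptors for acLDL. Sort1 and Sorl1 carry a VPS10 domain and move proteins between the Golgi, endosomes and the surface, and Sorl1 has repeats of the LDL receptor type as well.

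Of the 9 genes, 8 passed the filter on low counts and 1, Lrp2, did not. Between acLDL-high and acLDL-low cells, 1 of the 8 genes, Sorl1, differed, and it was higher. In edgeR's quasi-likelihood fit its adjusted p was under 0.05, against 4.75% of all 12572 genes tested (3.43% higher and 1.32% lower in acLDL-high cells). The other 7 had log2 fold changes between -0.04 and 0.08. The levels of all 8 genes differed between the 3 occasions, as did those of 78.0% of all genes tested.

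Stretches of promoter are shown first, for Sorl1, Lrp1 and Vldlr. These were the only 3 of the genes described here with a RefSeq window whose start is also the gene start in GENCODE. Availability of a window set this choice. Sorl1 differed between the populations, and the levels of Lrp1 and Vldlr spread almost 3-fold between occasions. Sort1 spread more between occasions (3.06-fold) but had no such window. The stretches are the 250 bases before the transcription start in RefSeq (GRCm38.p6), written 5′ to 3′ along the strand of the gene. Capitals mark a GC box (GGGCGG) or an E-box (CACGTG) on either strand, and these motifs do not overlap here.
Sorl1, minus strand, chr9:42124298-42124547: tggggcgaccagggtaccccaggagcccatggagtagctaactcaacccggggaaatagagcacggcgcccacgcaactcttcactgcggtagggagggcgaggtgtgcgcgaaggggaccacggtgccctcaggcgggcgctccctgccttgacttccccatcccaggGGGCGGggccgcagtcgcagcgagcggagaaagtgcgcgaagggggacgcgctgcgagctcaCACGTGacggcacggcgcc
Lrp1, minus strand, chr10:127621149-127621398: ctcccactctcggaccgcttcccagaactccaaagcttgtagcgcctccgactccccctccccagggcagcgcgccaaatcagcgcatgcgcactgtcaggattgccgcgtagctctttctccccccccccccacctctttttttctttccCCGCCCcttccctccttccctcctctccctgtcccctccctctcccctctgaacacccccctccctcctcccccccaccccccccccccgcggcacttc
Vldlr, plus strand, chr19:27216234-27216483: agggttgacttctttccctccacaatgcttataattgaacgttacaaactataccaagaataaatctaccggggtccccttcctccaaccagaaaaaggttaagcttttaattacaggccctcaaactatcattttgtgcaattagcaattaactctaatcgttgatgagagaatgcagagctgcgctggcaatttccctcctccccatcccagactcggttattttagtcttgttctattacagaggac

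The Sorl1 stretch was the richest in CpG of the 3, with 26 CpG and 69.6% G and C. Its GC box begins 81 bases and its E-box 19 bases before the start. The Lrp1 stretch had 13 CpG, 67.2% G and C and a GC box that begins 99 bases before the start. That of Vldlr had 5 CpG and 41.6% G and C and held neither motif. Over all 32851 RefSeq windows of this length the median was 6 CpG and 52.4% G and C, and 32.7% held a GC box and 6.02% an E-box. The CCAAT box (CCAAT), the TATA box (TATAAA) and the AP-1 motif (TGANTCA), searched on both strands, were in none of the 3 stretches and in 33.8%, 12.4% and 6.75% of all windows. A match says only that the letters are present, and which start was used in these cells was not measured.

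The library totals lay between 70263372 and 94216786 counts. In CPM (counts scaled to a common library size by TMM), 3 counts are worth between 0.0323 and 0.0429. This floor covers counting error only. The epithelial markers of the carcinoma were all detected, and all 9 of them passed the filter, with a summed level of 3457 to 5803 CPM in acLDL-low and 3913 to 6258 CPM in acLDL-high cells. All 9 log2 fold changes were above 0, with a median of 0.13. Of these 9 markers, 2 had an edgeR adjusted p under 0.05, both higher in acLDL-high cells (22.2%, against 4.75% of all genes tested). Of 8 endothelial markers 3 passed the filter, Erg and Emcn had 0 counts in all libraries, and the list summed to between 1.51 and 2.64 CPM over all libraries. Of 9 macrophage markers 3 passed, Adgre1, Msr1 and Marco had 0 counts, and the sum was 16.4 to 20.04 CPM in acLDL-low and 17.1 to 22.3 CPM in acLDL-high cells. Of 7 fibroblast markers 2 passed, Col3a1 and Lum had 0 counts, and the sum was 29.0 to 41.1 CPM against 29.8 to 43.3 CPM. Nearly all of that sum was Pdgfra, at 28.1 to 40.6 CPM in acLDL-low and 28.5 to 42.8 CPM in acLDL-high cells. The G2/M genes of the cell cycle moved with the sort, with 13 of 20 higher and 0 lower in acLDL-high cells. That is 65.0% called, against 4.75% of all genes tested (3.43% higher), with a median log2 fold change of 0.28 for these G2/M genes. Their part in the results below was not tested. In bulk RNA, more cells of one kind and more RNA in each cell cannot be told apart.

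Levels can be compared between genes only per length, here as CPM per kb of exon sequence. Lrp10, a distant member that takes part in traffic between the Golgi and endosomes, was highest with a mean of 39.3 CPM per kb over the 6 libraries, followed by Lrp1 at 39.0, Lrp5 at 26.2, Lrp8 at 19.997 and Lrp6 at 8.84. Sorl1 at 1.55, Vldlr at 0.773 and Sort1 at 0.0977 CPM per kb were far lower. Among the genes tested, Lrp10 and Lrp1 lay at percentiles 90.5 and 90.3 of this level, Sorl1 at 24.3, Vldlr at 18.4 and Sort1 at 6.55. The order was not fixed at the top. Lrp10 was above Lrp1 in 4 of 6 libraries and Lrp1 above Lrp5 in 4 of 6, and their ranges overlapped. Lrp5 was above Lrp8, and Sorl1 above Vldlr, in each of the 6 libraries, although their ranges over the libraries overlapped. The ranges of Lrp8 and Lrp6, of Lrp6 and Sorl1 and of Vldlr and Sort1 did not overlap. These levels use the length of all annotated exons of a gene and are too low where the cells use a shorter transcript.

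**Figure D1:**
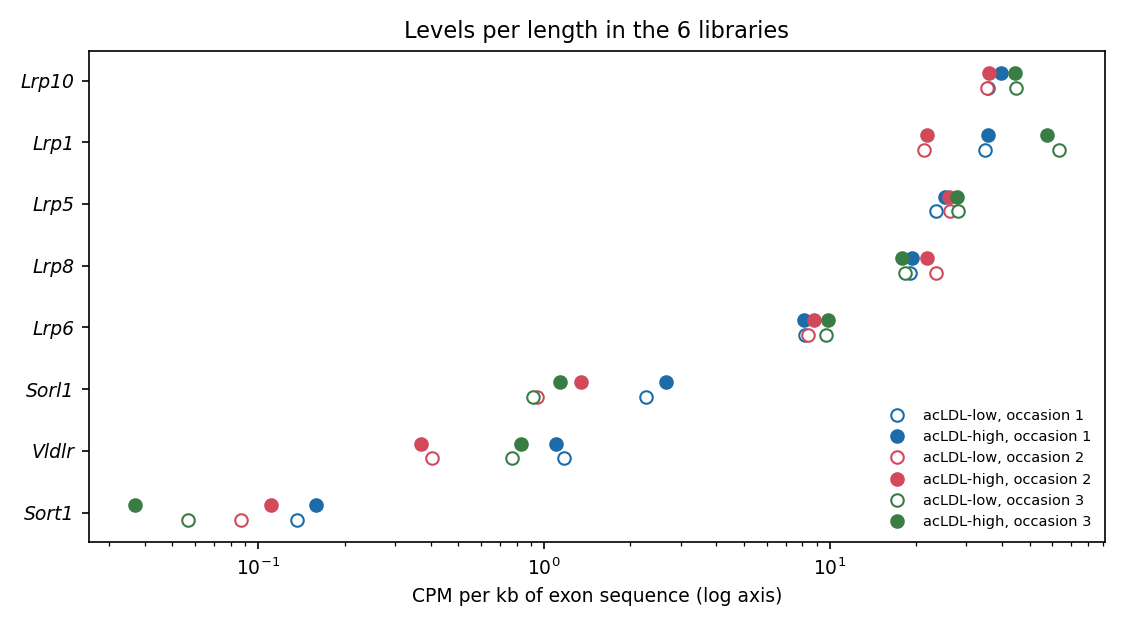
Level of each gene per kb of exon sequence (log axis) in the 6 libraries, with open circles for acLDL-low and filled circles for acLDL-high cells and colours for the 3 occasions. Lrp10, Lrp1, Lrp5, Lrp8 and Lrp6 lie above 8 CPM per kb in all 6 libraries, and Sorl1, Vldlr and Sort1 at 2.67 or less.

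Sorl1 (ENSMUSG00000049313, GRCm38 chromosome 9, 41964720 to 42124297, minus strand) encodes SORLA, which binds the retromer and GGA adaptors and sorts the amyloid precursor protein and lipoprotein lipase, among others. Its level in replicates 1, 2 and 3 stood at 25.8, 10.6 and 10.4 CPM in the acLDL-low libraries, beside 30.2, 15.2 and 12.9 in the acLDL-high ones. Each acLDL-high library was above the acLDL-low library of its own pair, while the populations as a whole overlapped because occasion 1 was high in both. The differences within the pairs were 0.23, 0.51 and 0.31 on the log2 scale. The fitted difference was 0.34 on the log2 scale (SE 0.07, edgeR adjusted p = 0.0138), with a 95% interval of 0.19 to 0.49, that is 1.27-fold with an interval of 1.14 to 1.41. Mean levels were 15.6 ± 8.84 CPM (acLDL-low) and 19.4 ± 9.40 CPM (acLDL-high; SD, n = 3). Without replicate 3 it came to 0.36 (edgeR adjusted p = 0.113), and without the replicate block it was 0.31 with an adjusted p of 1. An antisense gene, Gm16214, overlaps 185 bases of its exons and had 0 counts in all 6 libraries, so the counts assigned no read to it. Of the 3 macrophage markers tested, Cd14 was higher in acLDL-high cells, by 0.32 (adjusted p = 0.0246 from edgeR), while Cd68 had -0.28 (adjusted p = 0.201 from edgeR). Ptprc, at 0 to 16 counts in a library, had 0.83 (adjusted p = 0.561 from edgeR). A link of these markers with Sorl1 was not tested.

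Sort1 (ENSMUSG00000068747, chromosome 3, 108284082 to 108361511, plus strand) encodes sortilin, which carries proteins from the Golgi to lysosomes and binds neurotensin and progranulin. It was barely expressed, with 26 to 96 counts in a library. Its level in replicates 1, 2 and 3 stood at 1.03, 0.656 and 0.429 CPM in the acLDL-low libraries, beside 1.21, 0.834 and 0.280 in the acLDL-high ones, higher in pairs 1 and 2 and lower in pair 3. The log2 difference from the fit was 0.08 (SE 0.25, edgeR adjusted p = 0.902), and the 95% interval of -0.46 to 0.62 is too wide to place it with or apart from Sorl1. The antisense gene that overlaps 338 bases of its exons, Gm12523, had 0 counts in all libraries.

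Vldlr and Lrp8 encode the VLDL receptor and ApoER2, close relatives that bind apolipoprotein E and share reelin as a ligand. Vldlr (ENSMUSG00000024924, chromosome 19, 27216484 to 27254231, plus strand) stood at 11.8, 4.06 and 7.74 CPM in the acLDL-low libraries, beside 11.04, 3.73 and 8.37 in the acLDL-high ones of replicates 1, 2 and 3. It was lower in acLDL-high cells in pairs 1 and 2 and higher in pair 3, and each pair lay close together at its own level. Fitted over the pairs, acLDL-high minus acLDL-low came to -0.03 on the log2 scale (SE 0.09, edgeR adjusted p = 0.902), with a 95% interval of -0.21 to 0.16.

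Lrp8 (ENSMUSG00000028613, chromosome 4, 107802261 to 107876840, plus strand) stood at 200, 248 and 193 CPM in the acLDL-low libraries, beside 203, 230 and 188 in the acLDL-high ones. The populations overlapped, and occasion 2 was highest in both. The fitted difference was -0.04 on the log2 scale (SE 0.04, edgeR adjusted p = 0.672), with a 95% interval of -0.13 to 0.05. Per length, Lrp8 exceeded Vldlr in every library, by 16.3-fold to 59.1-fold with a median of 22.7-fold, and both libraries of occasion 2 gave the 2 highest ratios.

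Lrp1 (ENSMUSG00000040249, chromosome 10, 127538161 to 127621148, minus strand) encodes a large endocytic receptor for many ligands, among them remnant lipoproteins, proteases bound to their inhibitors and matrix proteins. It stood at 618, 379 and 1118 CPM in the acLDL-low libraries, beside 631, 386 and 1015 in the acLDL-high ones of replicates 1, 2 and 3. The differences within pairs were 0.03, 0.03 and -0.14 on the log2 scale, small beside the distance between occasions. The log2 difference from the fit was -0.03 (SE 0.05, edgeR adjusted p = 0.819), with a 95% interval of -0.13 to 0.08, so a difference of the size of that of Sorl1 lies outside it.

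Lrp2 (ENSMUSG00000027070, chromosome 2, 69424340 to 69586065, minus strand) encodes megalin, the endocytic receptor of the kidney proximal tubule. It had 0 counts in the 3 acLDL-low libraries and 2, 2 and 0 counts in the acLDL-high libraries. Both populations lie under the floor of 3 counts, so no fold change is given.

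Lrp5 and Lrp6 encode the co-receptors that join Frizzled proteins in Wnt signalling to beta-catenin. Lrp5 (ENSMUSG00000024913, chromosome 19, 3584828 to 3686564, minus strand) stood at 228, 256 and 274 CPM in the acLDL-low libraries, beside 247, 254 and 270 in the acLDL-high ones. Lrp6 (ENSMUSG00000030201, chromosome 6, 134446476 to 134566965, minus strand) stood at 112, 115 and 133 CPM in the acLDL-low libraries, beside 111, 120 and 134 in the acLDL-high ones. For both genes the populations overlapped and occasion 3 was highest.

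The log2 fold change was 0.03 for Lrp5 (SE 0.04, edgeR adjusted p = 0.789) with a 95% interval of -0.07 to 0.12. That of Lrp6 was 0.02 (SE 0.04, edgeR adjusted p = 0.811) with a 95% interval of -0.06 to 0.11. Per length, the level of Lrp5 was between 2.82 and 3.13 times that of Lrp6 in the 6 libraries, the most even ratio of the 3 pairs of relatives compared (Lrp5 with Lrp6, Lrp8 with Vldlr, Sorl1 with Sort1). The ratio with Sort1 rests on 26 to 96 counts of Sort1 in a library, so counting error adds to its spread.

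Lrp10 (ENSMUSG00000022175, chromosome 14, 54464137 to 54471497, plus strand) stood at 159, 158 and 199 CPM in the acLDL-low libraries, beside 177, 160 and 199 in the acLDL-high ones. Pair 1 differed by 0.15 on the log2 scale and pairs 2 and 3 by 0.02 and -0.0039. Fitted over the pairs, acLDL-high minus acLDL-low came to 0.05 on the log2 scale (SE 0.04, edgeR adjusted p = 0.549), with a 95% interval of -0.04 to 0.15. The antisense gene Gm10366 overlaps 475 bases of its exons and had 12 to 34 counts in a library, against 11528 or more for Lrp10.

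**Figure D2:**
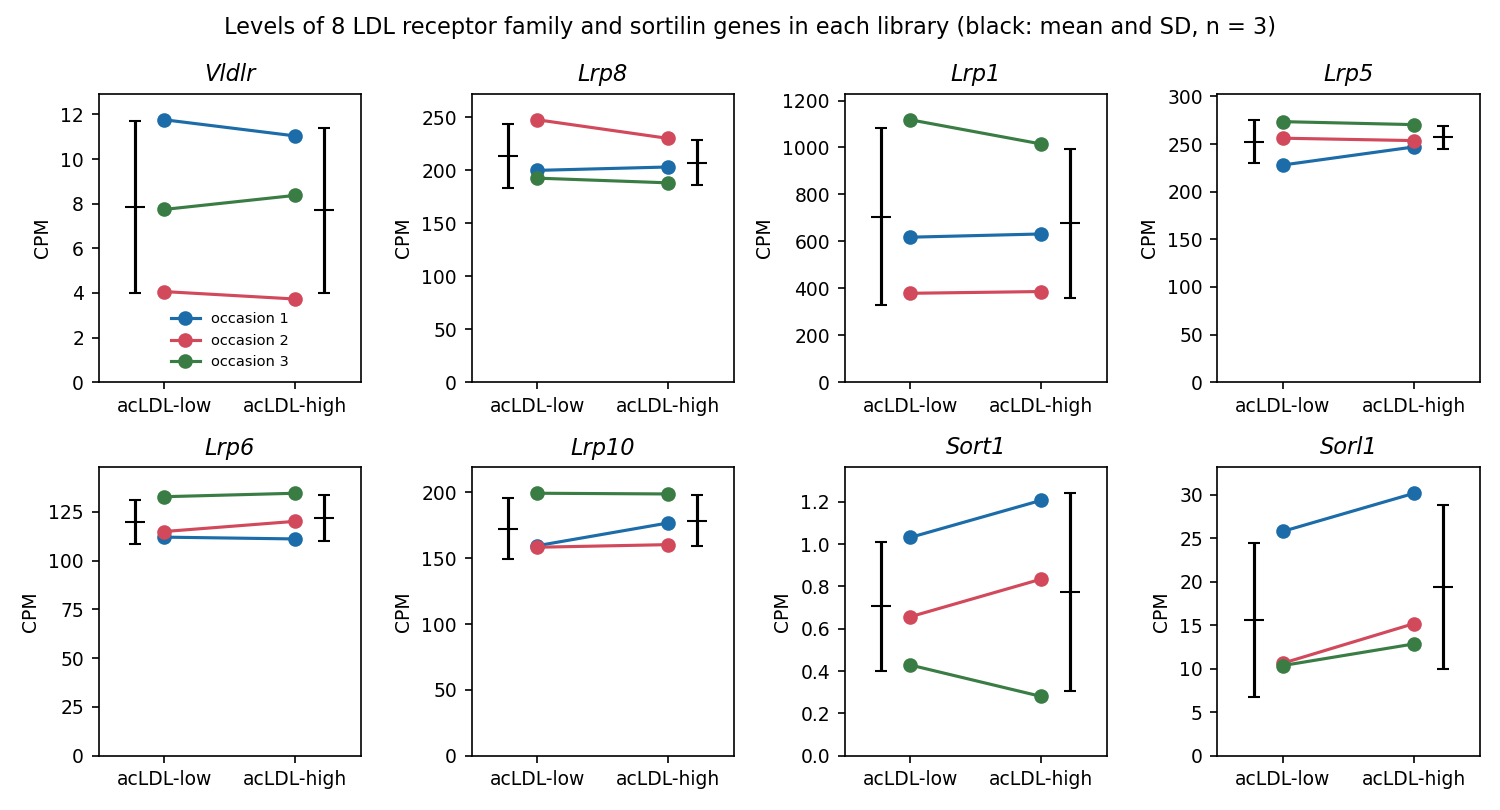
CPM of the 8 genes that passed the filter in acLDL-low and acLDL-high cells, with a line joining the libraries of an occasion and black marks for the mean and SD (n = 3). The lines of Sorl1 rise in all 3 occasions, while those of the other genes are level or differ in direction. The 3 occasions stand far apart for Lrp1, Vldlr and Sort1, as occasion 1 does for Sorl1. At smaller distances, the occasions do not overlap for Lrp8, Lrp5 and Lrp6 either.

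Of the 8 genes, Sorl1 was the only one with the same direction in all 3 pairs, against 40.4% of all genes tested. In none of the 8 were the CPM of the populations free of overlap, against 2.86% of all genes tested. Of the 8 fitted log2 fold changes 5 were above 0 and 3 below, with a median of 0.03, beside a median of 0.0017 over all genes tested. The adjusted p of the 7 other genes lay between 0.549 and 0.902, and apart from Sort1 their 95% intervals ended between -0.21 and 0.16. The intervals bound these differences and do not show that they are 0.

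**Figure D3:**
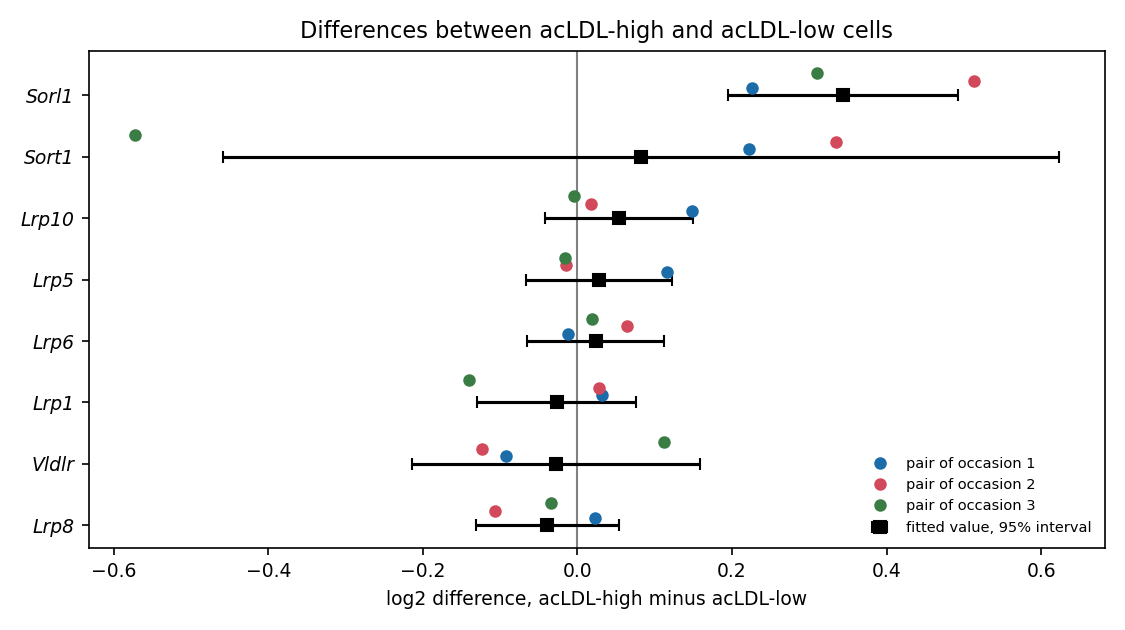
Log2 difference between acLDL-high and acLDL-low cells for each gene, with black squares and bars for the fitted value and its 95% interval and coloured points for the pairs of the 3 occasions. Sorl1 has all 3 pairs and its whole interval above 0, at 0.19 to 0.49, and the interval of Sort1 is the widest.

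These genes differed more between occasions than between the sorted populations. When the replicate terms were tested together with edgeR's quasi-likelihood test, all 8 passed at an adjusted p of 0.05, with values from 1.86e-09 for Lrp1 to 0.0152 for Lrp5. This is the usual state of these libraries, since 78.0% of all genes tested passed. The replicate number was read as the occasion here, so the test compares these 3 numbered pairs of libraries and nothing wider. Without replicate 3, 4 of the 8 genes passed, beside 7936 of all 12421 genes tested in that setting.

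Between the highest and the lowest occasion, averaged over both populations, the level of Sort1 differed 3.06-fold, that of Vldlr 2.92-fold, that of Lrp1 2.79-fold and that of Sorl1 2.41-fold. The other 4 genes differed by between 1.15-fold for Lrp5 and 1.25-fold for Lrp8. On the log2 scale the first 4 genes had ranges of 1.27 to 1.62, at percentiles 88.5 to 93.0 of all genes tested, whose median range was 0.45. Their order over the occasions was shared only by Sort1 and Sorl1. Vldlr was highest in occasion 1 and lowest in occasion 2, Lrp1 was highest in occasion 3 and lowest in occasion 2, and Sort1 and Sorl1 were highest in occasion 1 and lowest in occasion 3.

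The genes whose log2 CPM ran most like that of a member over the 6 libraries were named for Sorl1, Lrp10 and Lrp8, the 3 with the smallest p. For Sorl1 they were Esr1, Polh and Phf7 (r of 0.994, 0.993 and 0.993), none of which was called (adjusted p of 0.485, 0.274 and 0.903 from edgeR). For Lrp10 they were Lrrc27 (r of 0.999), Slc25a46 (0.991) and 4921524J17Rik (0.989), and for Lrp8 they were Zfp367 (0.999), Immt (0.998) and Mcm2 (0.998). The 6 libraries form 3 pairs, so they are not 6 independent points, and 78.0% of all genes tested differed between occasions. Each r is among the 3 highest picked over all genes compared, and its size was not tested against a background.

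The partners of the family were read from 6 lists written from general knowledge, with 118 genes in all, 89 of them tested and 9 called, in a fit that called 4.75% of all genes. Most calls were among the ligands. Of 28 ligands of these receptors, chiefly of Lrp1, 21 were tested, 7 were higher in acLDL-high cells and 0 lower, and 14 did not pass. That is 33.3% called, against 4.75% of all genes tested (3.43% higher), with a median log2 fold change of 0.25. The summed level of the list was 3479 to 3648 CPM in acLDL-low and 4041 to 4424 CPM in acLDL-high cells. That the sums do not overlap rests on Thbs1, since without it (a sum added after seeing the data) they were 2825, 3183 and 3023 CPM beside 3082, 3550 and 3317, higher in 3 of 3 pairs but overlapping. The list was written with earlier results of these data known.

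Thbs1, a matrix protein cleared by Lrp1, rose from 779, 465 and 456 CPM in acLDL-low to 1075, 874 and 724 CPM in acLDL-high cells of replicates 1, 2 and 3, a log2 fold change of 0.68 (SE 0.07, edgeR adjusted p = 0.000122). Ccn2, another matrix protein, rose in all 3 pairs from 76.0, 149 and 22.1 CPM to 107, 229 and 38.1 CPM, a log2 fold change of 0.62 (SE 0.05, edgeR adjusted p = 4.24e-05). The matrix metalloproteinase genes Mmp13 and Mmp9 rose by 0.84 (SE 0.08, edgeR adjusted p = 0.000122) and 0.41 (SE 0.05, edgeR adjusted p = 0.000311). Plau, the urokinase gene, rose by 0.37 (SE 0.05, edgeR adjusted p = 0.000832). Each of these 5 genes was higher in 3 of 3 pairs, and without the replicate block none of them was called. Beside these rises, the log2 fold change of Lrp1 itself was -0.03, as given above.

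Adaptors and sorting proteins, which couple the receptors to clathrin, the retromer or GGA carriers, had 20 of 22 genes tested, 0 higher and 1 lower, 5.0% called, with a median of -0.0063. The gene called was Gga3, a Golgi adaptor that binds the tails of sorting receptors. It stood at 56.8, 80.6 and 64.7 CPM in the acLDL-low libraries, beside 52.0, 68.9 and 58.1 in the acLDL-high ones, lower in 3 of 3 pairs, with a log2 fold change of -0.17 (SE 0.04, edgeR adjusted p = 0.0449). The call is marginal. Its adjusted p was 0.0667 with DESeq2, 0.0618 with all gene IDs tested, 0.148 without replicate 2, 0.202 without replicate 3 and 1 without the replicate block.

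Among 9 chaperones, proteases and other controllers of the receptors, all tested, 0 were called, with a median of 0.05. The smallest p was that of Adam17, a protease that sheds ectodomains, with a log2 fold change of 0.16 (SE 0.06, edgeR adjusted p = 0.138). Without replicate 2 it was 0.25 with an adjusted p of 0.000216. Of 12 other genes of the LDL receptor and VPS10 families, 6 were tested and 0 called, with a median of 0.09. Lrp3, Sorcs1 and Ldlrad2 had 0 counts in all libraries. Lrp4, the agrin receptor, had the smallest p in that list, at 0.502, 0.607 and 0.286 CPM in acLDL-low and 0.578, 1.00 and 0.538 CPM in acLDL-high cells, with a log2 fold change of 0.60 (SE 0.26, edgeR adjusted p = 0.231).

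Around Lrp5 and Lrp6, 27 of 37 Wnt partner genes (Frizzled receptors, Dickkopf inhibitors, Dishevelled and the beta-catenin destruction complex) were tested and 0 were called, with log2 fold changes from -0.22 to 0.21 and a median of 0.0090. The smallest p was that of Caprin2, which binds Lrp5 and Lrp6, at -0.22 (SE 0.07, edgeR adjusted p = 0.134). Of 10 Wnt target genes 6 were tested, 0 were higher and 1 was lower, with a median of -0.02. This 1 gene is 16.7% of those tested, against 4.75% called (1.32% lower) of all genes tested. The gene that fell was Myc, which many pathways control, from 458, 567 and 341 CPM in acLDL-low to 351, 437 and 289 CPM in acLDL-high cells, a log2 fold change of -0.33 (SE 0.05, edgeR adjusted p = 0.00115). None of the other 5 tested (Notum, Ccnd1, Apcdd1, Tcf7 and Lef1) passed, and Axin2 was too low to be tested.

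**Figure D4:**
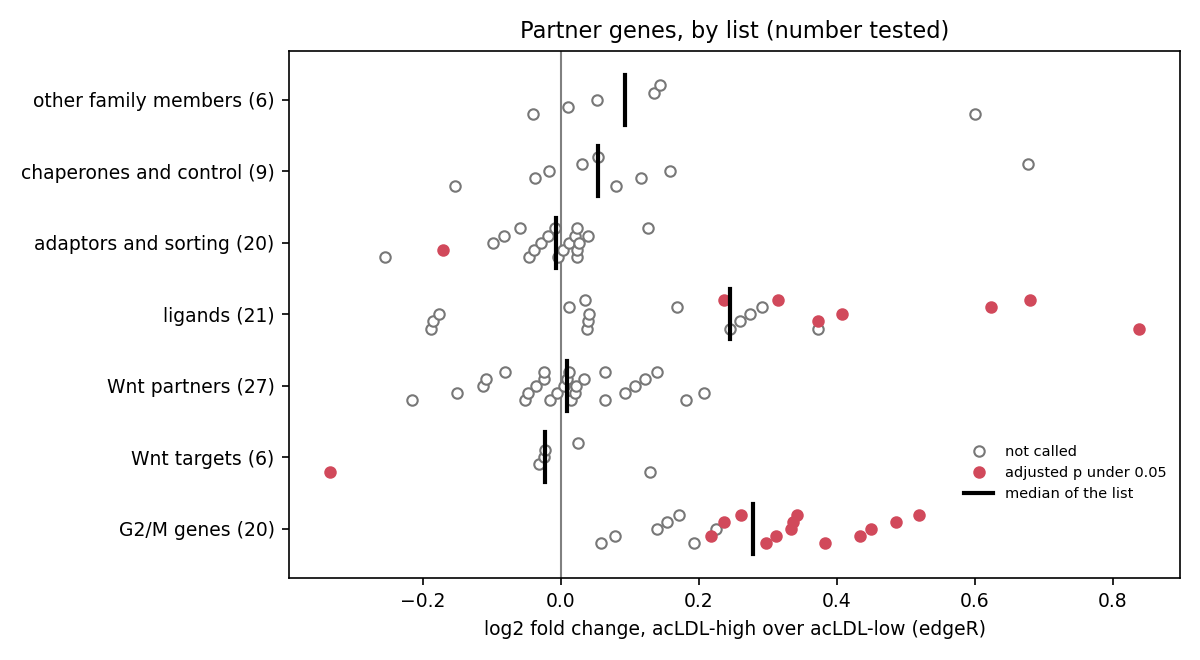
Log2 fold change between acLDL-high and acLDL-low cells of each tested gene of the 6 partner lists and the G2/M list, with filled points for an adjusted p under 0.05 (edgeR) and bars for the median of a list. The ligands lie mostly to the right of 0, with 7 of 21 called and a median of 0.25, while the Wnt partners centre on 0.0090 with none of 27 called.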

How the data were processed

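Both sorted populations of 4T1-T cells were sequenced, with 3 libraries each. Per the labels, stranded mRNA libraries were aligned to mm10 with STAR (2.5.2a), and the authors deposited raw read counts per gene, made with featureCounts (1.4.3-p1), for 53379 gene IDs. The annotation release and strand setting are not given in the sources used here. The authors also deposited their own DESeq2 (1.20.0) comparison, whose mean normalized signal, log2 fold changes, Wald scores and p-values were not used here. Only its gene IDs and symbols were read. All count columns of the samples were used.

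The 15973 genes of that table were tested with edgeR (4.0.16, R 4.3.3). filterByExpr kept 12572 genes, libraries were scaled by TMM, and quasi-likelihood F tests, blocked on replicate number, compared the populations, as the study's methods include replicate information. P-values were adjusted over all genes tested (Benjamini-Hochberg, threshold 0.05). SE values were obtained from the fitted difference and its F statistic, and the 95% interval uses the degrees of freedom of the fit. Differences within pairs are of log2 CPM with a prior count of 2. Within-population deviations of same-numbered libraries correlated at 0.795, 0.846 and 0.799 across genes, and numbers come from the labels, so the numbers were taken to pair the libraries. Libraries all differed beyond sampling noise (chi-square over its degrees of freedom at least 21.4). The sources do not say whether the occasions used separate thaws of the clone. The p-values of the blocked fits rest on the spread left after population and replicate number are fitted. They therefore cover these sorts only.

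Positions and exon lengths are from GENCODE M21 (GRCm38, the assembly of mm10), in which 53274 gene IDs were found, and promoters from RefSeq. Of the 9 genes, 3 have a promoter window at the GENCODE start. The tests were also run on counts simulated from the fit with known differences. The outcome is not reported here, and it does not bear on the spread between the real pairs. The members and lists were chosen with earlier results of these data known. Named were all members, in each list the called genes (at most the 6 smallest p, of which 1 ligand is not reported here) or the one with the smallest p, and the 3 genes of average log2 CPM of 1 or more most like a member. Cd14, Cd68, Ptprc, Pdgfra, the uncalled Wnt targets, Axin2 and the genes at 0 counts were named after their values were seen. Alternatives were a fit without the block, DESeq2's size factors, DESeq2 (1.42.0) with betaPrior, other low-count filters, all gene IDs and leaving out each pair.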

Additional observations from a re-analysis of the deposited data

How the results depend on the processing

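Without the replicate block, the adjusted p was under 0.05 for 0 genes (45 had an unadjusted p under 0.05) against 597 with the block, and so for 0 of the 8 members tested and 0 of the partner genes. Without a low-count filter 932 of 15973 genes were called, and 1 member. DESeq2 with the replicate block called 512 genes and 1 member, and scaling, the other filter and the wider gene table left the member count at 1. Leaving out one pair gave 126 (without replicate 3) to 869 genes, 0 to 1 members and 7 to 14 (without replicate 2) partner genes against 9. Between occasions, against 9802 genes and 8 members, leaving out replicate 1 gave 8213 genes and 6 members. Leaving out replicate 2 gave 6034 genes and 7 members, and leaving out replicate 3 gave 7936 genes and 4 members. Sorl1 kept its direction in 9 of 9 alternatives, with log2 fold changes from 0.26 to 0.41, and was called in 7. The uncalled members changed sign only on leaving out a pair, where Vldlr ran from -0.10 to 0.011, Lrp1 from -0.056 to 0.032, Lrp5 from -0.014 to 0.052 and Sort1 from -0.057 to 0.28. The causes were not tested. DESeq2 gave no adjusted p for Sort1. Depth is lowest for Lrp2 and Sort1, and what sets the precision of the other members was not tested.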
